A study of Mus musculus with 3 samples.

Results

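The semaphorin, plexin, neuropilin, Slit, Robo, netrin, ephrin and Eph genes, which steer growing axons, were examined for histone homocysteinylation in a mouse neural stem cell line. A list of 48 such genes was set by name, with earlier results of these data known, and all 48 were found among the 22380 protein-coding genes of GENCODE M1, the gene annotation of the mm9 mouse genome. Of these, 22 encode ligands (13 semaphorins, 3 Slits, 3 netrins and 3 ephrins) and 26 encode receptors (6 plexins, 2 neuropilins, 2 Robo receptors, 4 netrin receptors and 12 Eph receptors). For each gene, peaks overlapping the body from start to end and peaks within 10 kb of it were counted in 3 lists.

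The cells were NE4C, a clonal line of neuroectodermal stem cells from mouse embryonic brain vesicles that lack p53, grown on poly-L-lysine in Eagle MEM. All the libraries analysed were from cells without added homocysteine thiolactone (HTL), the reactive form of homocysteine that attaches itself to lysine. Chromatin was precipitated with an antibody to H3K79Hcy (histone H3 homocysteinylated at lysine 79), an antibody to homocysteinylated lysine in general (KHcy) or an antibody to H3K4me3 (trimethylated lysine 4 of histone H3, a mark of active gene starts). There was 1 library per antibody and no replicate, so no test between antibodies or genes was possible, and all intervals cover counting error only. HTL-treated cells, input, IgG and RNA libraries are not analysed here.

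Axon guidance molecules attract or repel the tip of a growing axon. Class 3 semaphorins are secreted and act through neuropilins and plexins, while Slits act through Robo receptors. Netrin-1 attracts through Dcc and repels through Unc5 receptors, whereas ephrins are bound to the membrane of one cell and signal to Eph receptor tyrosine kinases on another. Many of these genes have very long introns and are used as neurons extend axons, as well as in the migration of neural precursors and in blood vessels.

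There were 7387 H3K79Hcy, 7300 KHcy and 19339 H3K4me3 peaks, holding 209335, 276864 and 787308 reads, and the depth of the whole libraries is unknown from these files. The paper reports other totals for H3K79Hcy and H3K4me3, and its H3K4me3 total is far smaller. Its H3K79Hcy total is nearly equal to the length of the KHcy list (7300) and farther from that of the H3K79Hcy list (7387). The reason for these differences is unknown. The labels were used as given, KHcy from a sample title and the other 2 from the antibody field. Whether the labels of the 2 homocysteinylation lists are exchanged was not tested, and every result on H3K79Hcy or KHcy rests on them. The fold of a peak is its reads divided by the background of its library over the same length, and the background was 1.59, 1.49 and 1.38 reads per window of 200 bp. As a check of the cell type, 6 of 9 neural stem cell genes, including Nes, Sox2 and Notch1, had an H3K4me3 peak in the body or within 10 kb, beside 29.4% of all protein-coding genes, while Pax6, Hes1 and Fabp7 had none. In the body alone 4 of 9 had one, beside 19.7%. The check had been planned on gene starts, and there 1 of 9, Nes, lay in an H3K4me3 peak (11.1%, 1.99 to 43.5%), beside 5.41% of all genes. Among 5 genes of other tissues, Ins2 alone had one within 10 kb and none had one in the body.

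Sequence is shown first for the gene starts where H3K4me3 was found. Of the members, 4 had their annotated start inside an H3K4me3 peak. For Unc5b, Nrp2 and Epha4 the 300 bases around the start (270 upstream and 30 downstream, mm9, 5′ to 3′ on the strand of the gene, CG dinucleotides in capitals) are given to show how rich in CG these starts are.
Unc5b, chr10:60294300-60294599, minus strand: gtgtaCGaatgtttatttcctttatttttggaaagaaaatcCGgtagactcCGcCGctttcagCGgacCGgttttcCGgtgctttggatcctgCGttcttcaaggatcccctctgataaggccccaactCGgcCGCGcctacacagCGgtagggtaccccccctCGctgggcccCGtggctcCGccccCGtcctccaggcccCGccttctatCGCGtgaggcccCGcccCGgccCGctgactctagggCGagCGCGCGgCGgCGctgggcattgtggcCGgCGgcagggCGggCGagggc
Nrp2, chr1:62749589-62749888, plus strand: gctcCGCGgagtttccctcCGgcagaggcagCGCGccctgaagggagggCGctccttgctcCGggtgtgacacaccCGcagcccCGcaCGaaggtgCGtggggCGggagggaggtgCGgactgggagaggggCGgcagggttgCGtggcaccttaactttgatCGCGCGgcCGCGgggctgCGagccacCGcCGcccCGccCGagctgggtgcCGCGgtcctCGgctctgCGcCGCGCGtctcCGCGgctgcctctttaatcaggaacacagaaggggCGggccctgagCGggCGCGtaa
Epha4, chr1:77511634-77511933, minus strand: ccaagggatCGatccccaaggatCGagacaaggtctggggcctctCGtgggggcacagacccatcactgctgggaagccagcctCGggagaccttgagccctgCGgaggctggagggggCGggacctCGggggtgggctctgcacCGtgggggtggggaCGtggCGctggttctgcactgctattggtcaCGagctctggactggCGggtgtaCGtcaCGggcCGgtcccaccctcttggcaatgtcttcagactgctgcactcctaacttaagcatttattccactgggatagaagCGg
The Unc5b window reaches upstream past its H3K4me3 peak, which ends at chr10:60294400, while the peaks of Nrp2 and Epha4 cover their windows. The windows held 32 CG dinucleotides for Unc5b, 38 for Nrp2 and 16 for Epha4. As many or more were present in 9.83%, 5.17% and 38.8% of all protein-coding gene starts, respectively.

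Of the 14 H3K79Hcy peaks in member bodies, 1 was centred within 5 kb of the gene start, and the median was 6 CG dinucleotides per kb. The H3K4me3 peaks in member bodies had a median of 29.1 per kb within 5 kb of the start and 10.2 farther in. The contrast with the start windows is therefore one of position as well as antibody. The middle 300 bases of the member peak of largest fold, in an intron of Nrp1, and of the peak of highest score among the 3 in Unc5c are given for contrast, both on the plus strand. The third sequence is the middle of the stretch in Efna1 that H3K79Hcy and H3K4me3 peaks shared, the only place in a member body where an H3K79Hcy peak overlapped a peak of another list. The H3K4me3 peak of largest fold, in an intron of Ntn1, completes the set. These 4 sequences were picked after the values had been seen.
Nrp1, H3K79Hcy, chr8:130928851-130929150: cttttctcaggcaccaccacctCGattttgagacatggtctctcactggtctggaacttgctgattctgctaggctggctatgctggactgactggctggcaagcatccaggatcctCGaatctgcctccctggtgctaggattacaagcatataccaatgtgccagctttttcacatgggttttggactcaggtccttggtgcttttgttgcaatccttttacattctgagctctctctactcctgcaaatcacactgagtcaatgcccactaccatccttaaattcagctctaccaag
Unc5c, H3K79Hcy, chr3:141338551-141338850: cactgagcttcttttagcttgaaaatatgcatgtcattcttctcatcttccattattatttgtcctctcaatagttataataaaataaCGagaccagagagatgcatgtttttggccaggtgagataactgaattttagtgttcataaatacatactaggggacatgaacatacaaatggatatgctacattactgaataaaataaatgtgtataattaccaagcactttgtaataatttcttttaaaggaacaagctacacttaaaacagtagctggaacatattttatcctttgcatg
Efna1, H3K79Hcy and H3K4me3, chr3:89084051-89084350: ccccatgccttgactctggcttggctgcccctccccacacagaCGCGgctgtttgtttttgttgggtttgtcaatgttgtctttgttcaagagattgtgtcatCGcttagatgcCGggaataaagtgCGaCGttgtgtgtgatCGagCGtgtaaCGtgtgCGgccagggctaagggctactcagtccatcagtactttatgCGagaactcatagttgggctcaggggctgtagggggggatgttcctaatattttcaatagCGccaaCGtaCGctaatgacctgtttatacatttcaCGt
Ntn1, H3K4me3, chr11:68205851-68206150: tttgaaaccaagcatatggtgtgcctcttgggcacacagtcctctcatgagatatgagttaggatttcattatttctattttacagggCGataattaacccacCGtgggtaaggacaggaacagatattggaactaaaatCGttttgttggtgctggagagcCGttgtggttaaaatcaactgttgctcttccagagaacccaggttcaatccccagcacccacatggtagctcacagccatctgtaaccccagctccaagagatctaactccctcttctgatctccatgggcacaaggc
The intronic Nrp1 and Unc5c sequences held 2 and 1 CG dinucleotides, and the Ntn1 sequence held 4. The Efna1 sequence, which overlapped no annotated exon, held 15.

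H3K79Hcy was found in the bodies of 11 of the 48 members (22.9%, 95% Wilson interval 13.3 to 36.5%), with 14 peaks. KHcy was found in 6 members (12.5%, 5.86 to 24.7%) with 8 peaks, and H3K4me3 in 15 (31.2%, 19.9 to 45.3%) with 41 peaks. Among all protein-coding genes the shares were 7.82%, 9.28% and 19.7%. With 10 kb on either side, 12, 7 and 18 members had a peak, beside 11.2%, 13.1% and 29.4% of all genes. The member genes are long, with a median of 147 kb and a range from 6.11 kb (Efnb3) to 1092 kb (Dcc), and long genes hold more peaks in each list, so these shares cannot be read against all genes without regard to length.

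**Figure D1:**
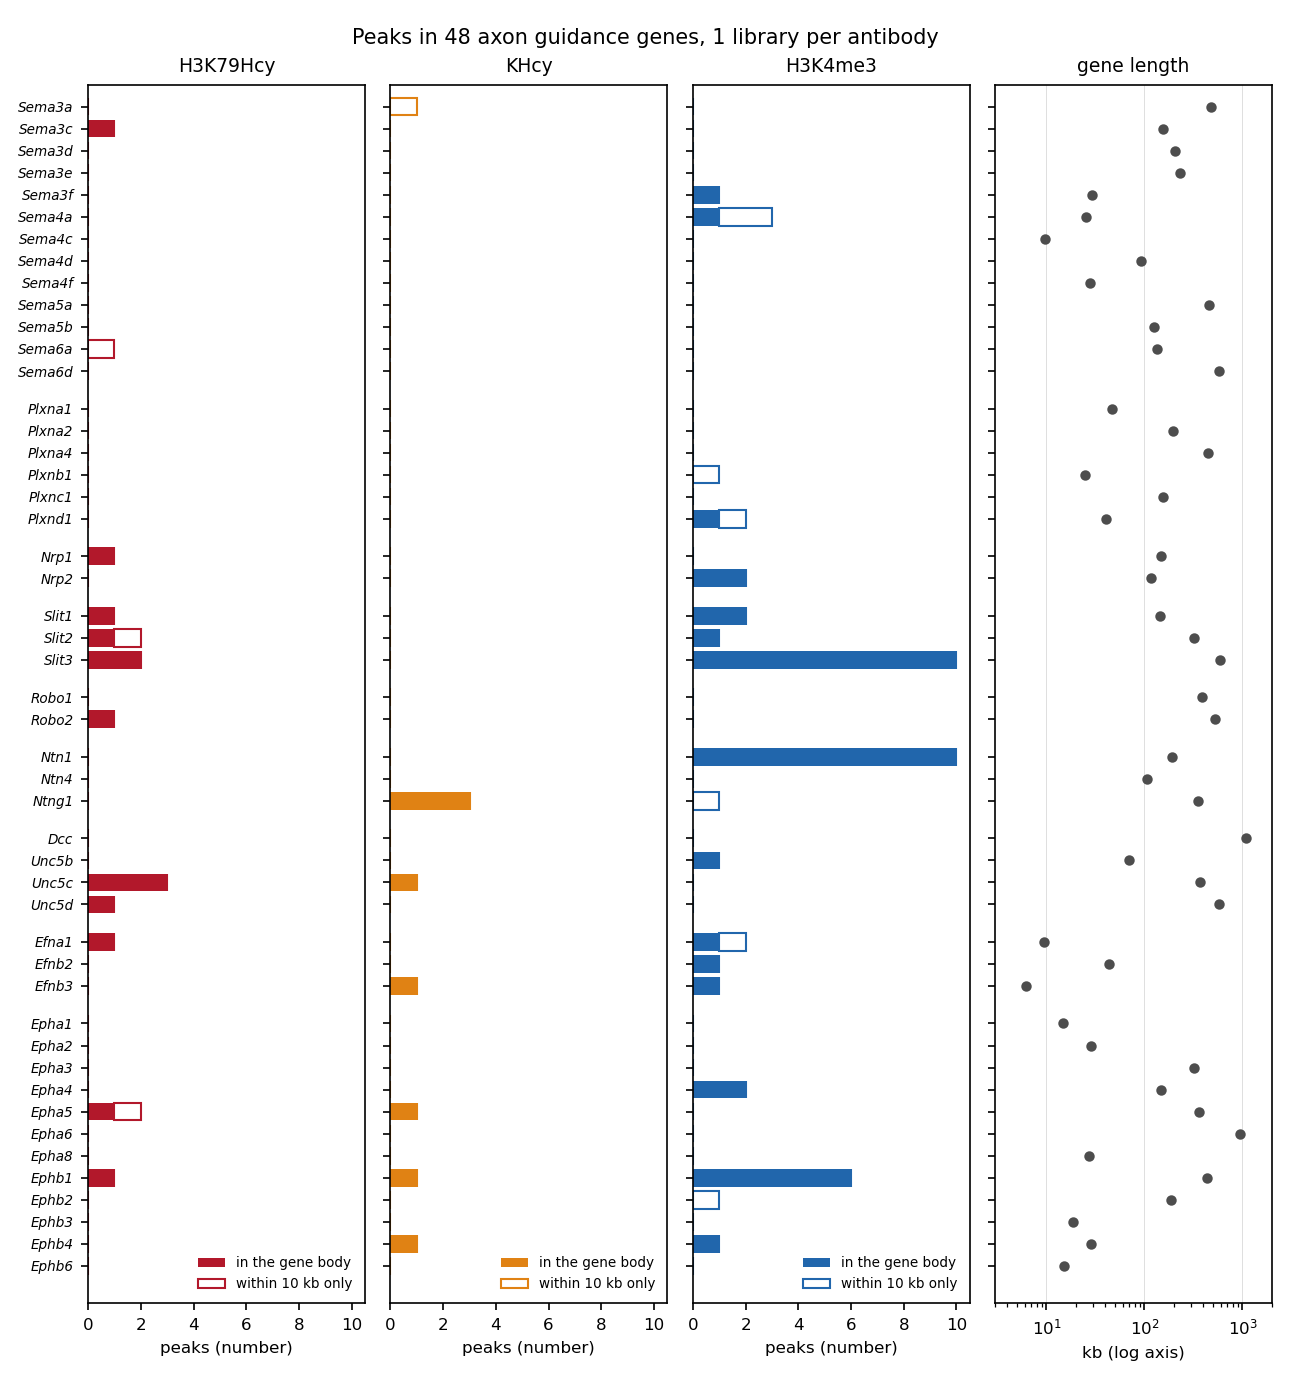
Number of peaks of each list in the body of each of the 48 members (filled bars) and within 10 kb outside it (open bars), with the gene length on a log axis at the right, and members grouped by family. H3K4me3 peaks were concentrated in Slit3, Ntn1 and Ephb1 (10, 10 and 6 peaks), whereas no member had more than 3 H3K79Hcy or 3 KHcy peaks.

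Most members had no peak or peaks of a single list. In 26 members no list had a peak in the body, 13 had peaks of 1 list, 8 of 2 lists, and Ephb1 alone had peaks of all 3. List by list, only 7.82% (H3K79Hcy), 9.28% (KHcy) and 19.7% (H3K4me3) of all protein-coding genes had a peak in the body. The shares of all genes by number of lists were not computed, so these counts do not set the members apart. The 8 members with 2 lists were Slit1, Slit2, Slit3 and Efna1 (H3K79Hcy and H3K4me3), Unc5c and Epha5 (H3K79Hcy and KHcy), and Efnb3 and Ephb4 (KHcy and H3K4me3). H3K79Hcy alone was found in Sema3c, Nrp1, Robo2 and Unc5d, KHcy alone in Ntng1, and H3K4me3 alone in Sema3f, Sema4a, Plxnd1, Nrp2, Ntn1, Unc5b, Efnb2 and Epha4.

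Among the secreted ligands, each of the 3 Slits had H3K79Hcy and H3K4me3 in its body and none had KHcy. Genes of their lengths would give 1.01 Slits with H3K79Hcy, 1.21 with H3K4me3 and 1.02 with KHcy. Slit3 (chr11:34934726-35522009) had 2 H3K79Hcy, 0 KHcy and 10 H3K4me3 peaks over 587 kb. Its H3K79Hcy peaks lay in introns 1 and 4, centred 34.3 and 115 kb from the start, with folds of 2.20 and 1.88. The first H3K4me3 peak lay in intron 1, its nearest edge 1.27 kb from the start, and the other 9 were spread from 142 to 568 kb. As many peaks were found in 6 of the 126 genes of similar length (4.76%), meaning genes for which the shorter of the 2 lengths was at least 0.8 of the longer. In the Slit3 gene, 2 of the H3K4me3 peaks held more than 10% of 31-base words that recur elsewhere in the genome (12.1 and 18.7%), so that the placement of reads there was less certain.

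Slit2 (chr5:48374394-48697521) had a single H3K79Hcy peak in intron 4, 35.0 kb from the start, with a fold of 2.20, and a further one outside the gene 3′ of its end. Its H3K4me3 peak, of fold 2.84, lay over exon 1 with its edge 0.607 kb from the gene start and included the start of another transcript. Slit1 (chr19:41674747-41818155) had 1 H3K79Hcy peak in intron 13, 101 kb from the start, and 2 H3K4me3 peaks in introns 1 and 4. In the 3 genes no H3K79Hcy peak touched an H3K4me3 peak. The Slits together had 4 H3K79Hcy peaks, where the density of their 5 Mb stretches would give 5.64, and 13 H3K4me3 peaks beside 7.00. The counts of a stretch, here and below, include the peaks of the members in it.

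The Slit receptors were nearly free of peaks. Robo2 had 1 H3K79Hcy peak in intron 2, of fold 2.51, and no other, and Robo1 had none of any list. The H3K4me3 peak nearest to the start of Robo1 was 6188 kb away and that nearest to Robo2 was 7936 kb away. Both lie in a stretch of chromosome 16 with 1 H3K79Hcy peak, the one in Robo2, and 0 peaks of the other lists.

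Netrin-1 shared with Slit3 the largest number of H3K4me3 peaks of any member, and had no homocysteinylation peak. Ntn1 (chr11:68022866-68214325, 191 kb) had 0 H3K79Hcy, 0 KHcy and 10 H3K4me3 peaks, and 12 of 628 genes of similar length (1.91%) had as many. Its 5 Mb stretch would give 2.72. The peak in intron 2 at chr11:68205801-68206200, 8.32 kb into the gene, had the largest fold of any member H3K4me3 peak, 5.79, on 16 reads. The annotated gene start was 2.32 kb from the nearest peak, but a peak 14.8 kb into the gene, over exon 3, covered the start of a shorter transcript, with 111 CG dinucleotides per kb and 68.1% G and C bases, the most of any member peak on each measure. The window at the annotated start held 9 CG dinucleotides.

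Netrin-G1 (Ntng1, chr3:109582958-109938426), a membrane-anchored relative that does not bind Dcc, had 3 of the 8 KHcy peaks of the members and 0 of H3K79Hcy. They were centred 104, 108 and 241 kb from the start in introns 1, 1 and 2, with folds of 2.29, 2.09 and 1.84, and 49 of 305 genes of similar length (16.1%) had as many. An H3K4me3 peak lay outside it, 8.17 kb upstream of the start. That peak covered the start of a separate model of Ntng1 of 327 bp (chr3:109946603-109946929), whereas the counts here rest on the longest model. Ntn4 had no peak of any list.

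**Figure D2:**
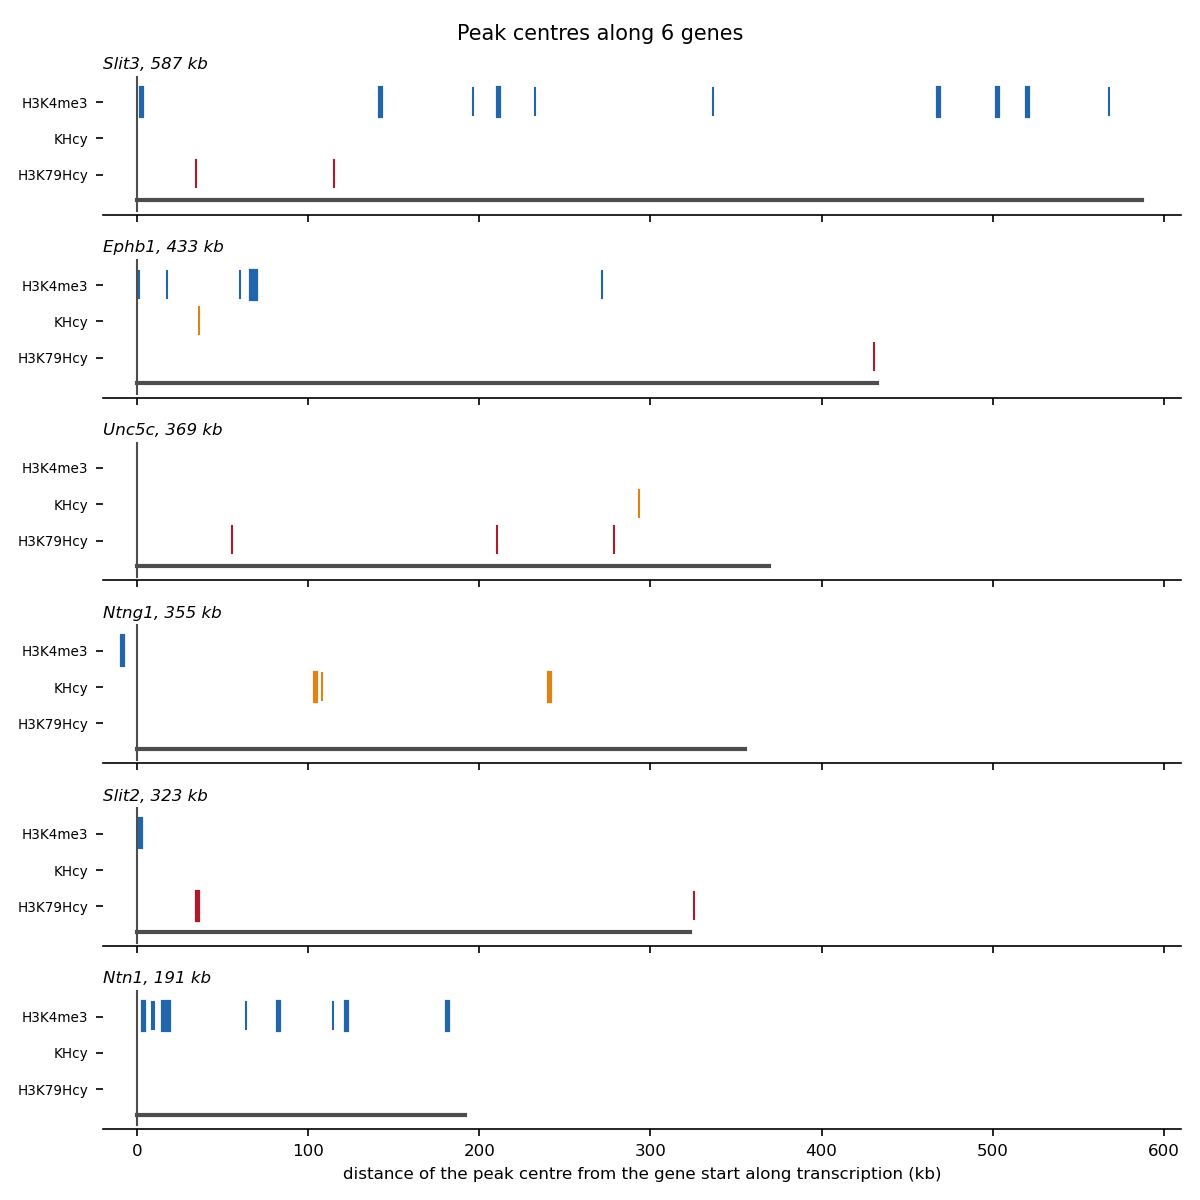
Peak centres along 6 members, as distance from the gene start in the direction of transcription (kb). Thick lines mark peaks past a stricter score (ln(100) above the lowest of the list) and the grey bar marks the gene. H3K4me3 peaks of Slit3 were spread to 568 kb, those of Ntn1 began at 3.23 kb, and the homocysteinylation peaks of Unc5c and Ntng1 lay 55.6 kb or more from the start.

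Of the netrin receptors, Unc5c (chr3:141128528-141497888, 369 kb), a repulsive receptor, had the most H3K79Hcy peaks of any member, 3, with 1 KHcy and 0 H3K4me3. The H3K79Hcy peaks lay in introns 1, 1 and 4, centred 55.6, 210 and 278 kb from the start, with folds of 2.64, 2.64 and 2.41 on 21, 21 and 23 reads. As many were found in 52 of 300 genes of similar length (17.3%), and its 5 Mb stretch would give 3.03, so the count was within what surrounded it. The KHcy peak lay in intron 5, 293 kb from the start, and touched none of them. The H3K79Hcy peak at 210 kb also overlapped the noncoding gene Gm15689. Unc5d had 1 H3K79Hcy peak in intron 1, of fold 3.56. Unc5b (chr10:60225358-60294329) had 1 H3K4me3 peak, which covered its start, of fold 2.82. Dcc, the attractive receptor and the longest member, had no peak of any list.

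Among the 13 semaphorins, peaks were few. Sema3c had 1 H3K79Hcy peak in intron 2, of fold 2.51, and Sema3f and Sema4a had 1 H3K4me3 peak each in the body. The family had 1 H3K79Hcy, 0 KHcy and 2 H3K4me3 peaks over 2.54 Mb, where the 5 Mb stretches would give 11.1, 9.43 and 11.0. Sema6a had an H3K79Hcy peak 0.277 kb upstream of its start, of fold 2.30, and Sema3a had a KHcy peak within 10 kb of its 3′ end. No peak of any list was found in or near Sema3d, Sema3e, Sema4c, Sema4d, Sema4f, Sema5a, Sema5b or Sema6d.

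The class 3 semaphorins of chromosome 5 held few of the peaks around them. Sema3a, Sema3d and Sema3e lie in the stretch from 10 to 15 Mb, which held 45 H3K79Hcy peaks, with 0 in the 0.914 Mb of the 3 genes. Of those 45, 31 lay in a single tile of 100 kb. Sema3c lies in the next stretch, with 65 H3K79Hcy peaks, 48 of them in 3 such tiles. The count expected of these genes from their stretches was therefore set in large part by a few dense tiles outside them.

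Of the semaphorin receptors, none of the 6 plexins had an H3K79Hcy or KHcy peak in the body or within 10 kb, where genes of their lengths would give 1.17 and 1.27 plexins with one in the body. Of the 2 neuropilins, 1 had H3K79Hcy beside 0.461 by length, and neither had KHcy beside 0.511. Plxnd1 had an H3K4me3 peak in intron 1, 1.82 kb from its start, and another upstream, and Plxnb1 had one 1.95 kb upstream, which overlapped the neighbouring gene Ccdc51. Plxna1, Plxna2, Plxna4 and Plxnc1 had no peak of any list in the body or within 10 kb. Nrp1 (chr8:130882973-131029362) had 1 H3K79Hcy peak in intron 2, 46.0 kb from the start, and its fold of 4.71 was the largest of the H3K79Hcy peaks in member bodies, on 15 reads in 400 bp. Nrp2 (chr1:62749859-62865269) had no homocysteinylation peak and 2 H3K4me3 peaks. The first covered its start over 5400 bp with 99 reads and a fold of 2.66, the most reads of any member peak.

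The 3 ephrins, short genes of 6.11 to 43.8 kb, each had H3K4me3 at or near the start. Genes of their lengths would give 0.573 ephrins with H3K4me3 in the body. Efnb3, a transmembrane ephrin, had a KHcy peak of fold 3.36 and an H3K4me3 peak of fold 2.90, both covering the start and sharing 600 bp. The KHcy fold was the largest of the 8 member peaks of that list. Efna1 (chr3:89075655-89085064), anchored to the outer face of the cell membrane, had an H3K79Hcy peak of fold 2.64 and an H3K4me3 peak of fold 3.19 in intron 1, which shared 800 bp. The nearest edges of these peaks were 0.464 and 0.264 kb from the start. In Efnb2, the partner of Ephb4 in vessels, an H3K4me3 peak of fold 2.17 lay 2.24 kb from the start and no other peak was found.

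Of the 12 Eph receptors, Epha4, Epha5, Ephb1 and Ephb4 had a peak in the body. Ephb1 (chr9:101824458-102257023, 433 kb) had 1 H3K79Hcy, 1 KHcy and 6 H3K4me3 peaks, of which none overlapped another. The H3K79Hcy peak overlapped a coding exon, the only one of the 14 to do so, at 431 kb near the 3′ end, whereas the KHcy peak lay in intron 1 at 35.8 kb. Of genes of similar length, 26 of 231 (11.3%) had 6 or more H3K4me3 peaks. Epha5 (chr5:84486816-84846407) had an H3K79Hcy peak in intron 1, 12.1 kb from the start, with 36 reads and a score of 26.7, the highest score of the 14, a KHcy peak in intron 6, and a further H3K79Hcy peak just 3′ of the gene.

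Ephb4 (chr5:137791337-137819897) had a KHcy peak of fold 1.96 that covered the start and shared 1400 bp with an H3K4me3 peak of fold 2.70. Epha4 (chr1:77363760-77511663), which binds both classes of ephrin, had an H3K4me3 peak of 5200 bp and fold 2.48 over its start and another in intron 5. Ephb2 had an H3K4me3 peak 3′ of the gene. Epha1, Epha2, Epha3, Epha6, Epha8, Ephb3 and Ephb6 had no peak of any list in the body or within 10 kb.

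Long genes without any peak in the body made up 16 of the 30 members over 100 kb (53.3%), beside 1152 of 2371 other protein-coding genes of that length (48.6%). They were the semaphorins Sema3a (chr5:13125593-13602565), Sema3d (chr5:12383166-12588943), Sema3e (chr5:14025276-14256689), Sema5a (chr15:32174568-32626096), Sema5b (chr16:35541231-35664818), Sema6a and Sema6d (chr2:123915705-124493506). The plexins were Plxna2 (chr1:196446023-196643063), Plxna4 (chr6:32094565-32538192) and Plxnc1 (chr10:94253617-94407212). The rest were Robo1 (chr16:72663394-73046340), Ntn4 (chr10:93103426-93209952), Dcc, Epha3 (chr16:63543364-63863984), Epha6 (chr16:59653309-60605357) and Ephb2 (chr4:136203454-136391903). Of these, Sema3a, Sema6a and Ephb2 had a peak within 10 kb. Of the 16, 13 lay in stretches of 5 Mb with fewer than 10 KHcy peaks, as did 25 of all 48 members and 11942 of all 22380 protein-coding genes. Genes without a peak tend to fall in such stretches in any case, since both rest on the KHcy list. The share among the 1152 other long genes without a peak was not computed, so this count does not set the members apart.

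The number of members with a peak was then set against genes of similar length. From the shares of such genes, 11.2 members would have had H3K79Hcy, 11.9 KHcy and 16.5 H3K4me3, where 11, 6 and 15 were found. The ratios were 0.979 (0.568 to 1.56) for H3K79Hcy, 0.505 (0.237 to 0.998) for KHcy and 0.911 (0.581 to 1.32) for H3K4me3. The intervals for H3K79Hcy and H3K4me3 included equality and that for KHcy ended just below it. With the stricter score, set at ln(100) above the lowest score in each list, the ratios for H3K79Hcy and KHcy were 0.420 and 0.157. In numbers of peaks, genes of similar length would give 32.5 H3K79Hcy, 34.2 KHcy and 74.0 H3K4me3 peaks, where 14 (exact Poisson interval 7.65 to 23.5), 8 (3.45 to 15.8) and 41 (29.4 to 55.6) were found, all below. These expectations are sums of mean counts, which a few genes with many peaks raise. Genes of the length of Dcc and Epha6 had means of 11.1 and 9.32 H3K4me3 peaks, although 44% and 43.3% of them had any. The lower counts therefore do not show that the members lack peaks for their length. With 1 library per antibody no difference between the lists was tested.

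Peaks were also set against the 5 Mb stretch of each gene, since peaks crowd into some parts of the genome. The density of the stretches would give 30.5 H3K79Hcy, 24.9 KHcy and 47.7 H3K4me3 peaks in 11.0 Mb of member bodies, and 14, 8 and 41 were found. The ratios were 0.460 (exact Poisson interval 0.251 to 0.771), 0.321 (0.139 to 0.632) and 0.860 (0.617 to 1.17). With the member bodies taken out of the stretches, the ratios were 0.425, 0.295 and 0.829. Tiles of 100 kb with 5 or more peaks were then left out, inside members as well, a choice made after the data had been seen. This kept 14, 8 and 37 member peaks, and the ratios were 0.627 (0.343 to 1.05), 0.440 (0.190 to 0.866) and 1.11 (0.780 to 1.53). For H3K79Hcy the interval then included equality, whereas for KHcy it stayed below.

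**Figure D3:**
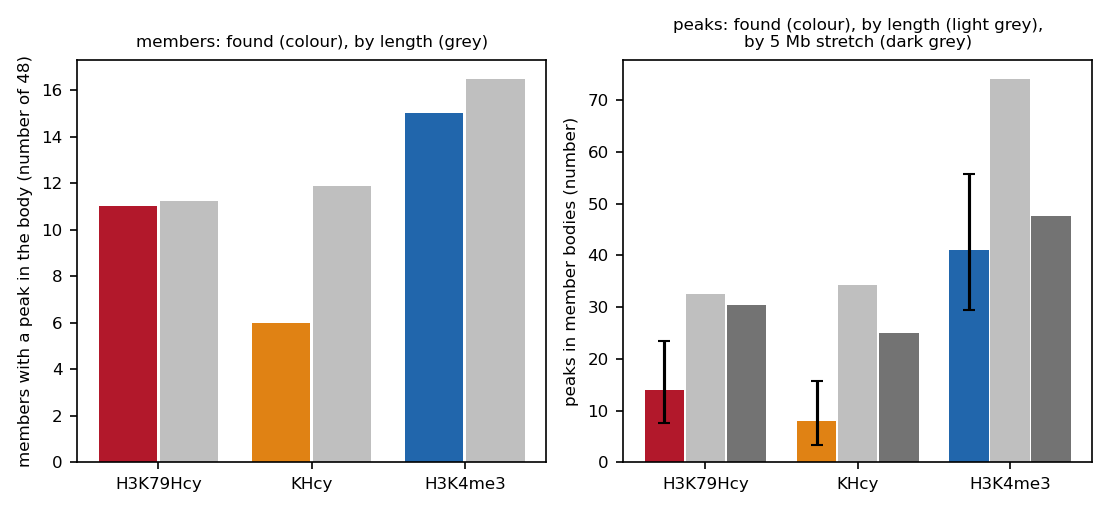
Left, members with a peak in the body, found (colour) and expected from genes of similar length (grey). Right, peaks in member bodies, found (colour, with exact 95% Poisson intervals) and expected from genes of similar length (light grey) and from the 5 Mb stretches (dark grey). The 14 H3K79Hcy and 8 KHcy peaks lay below both expectations, with intervals that reached neither, and the 41 H3K4me3 peaks lay below that by length, while their interval included that by stretch. The intervals treat peaks as independent and the expectations as exact, although peaks crowd together, so they are too narrow to show a depletion. The number of members with H3K79Hcy, 11, was near the 11.2 expected by length.

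Members with peaks lay mostly in stretches dense in peaks. Of the 48, 23 lay in stretches with 10 or more KHcy peaks (47.9%, beside 46.6% of all genes). There, 8 had H3K79Hcy and 14 had H3K4me3, while of the 25 others 3 had H3K79Hcy and 1 had H3K4me3. All 6 members with KHcy were in the dense stretches, which the choice of stretch by KHcy peaks favours. The same split was seen over all genes, of which 15.2% had H3K79Hcy and 35.3% H3K4me3 in dense stretches, against 1.38% and 6.02% elsewhere. The 3 members with H3K79Hcy outside dense stretches were Nrp1, Robo2 and Unc5d.

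Few gene starts lay in a peak of any list, among the members or among all genes. The starts of 0 members lay in an H3K79Hcy peak (0.416% of all genes), 2 in a KHcy peak (0.996%) and 4 in an H3K4me3 peak (8.33%, 3.29 to 19.6%, beside 5.41%). In 4 further members, Slit2, Efna1, Ephb1 and Ephb4, an H3K4me3 peak lay within 1 kb of the start, which made 8 of 48 (16.7%, 8.70 to 29.6%) beside 13.6% of all genes. Within 5 kb there were 14 (29.2%, 18.2 to 43.2%), beside 18.6%. The H3K4me3 peak near the start of Ephb1 also overlapped the noncoding gene Gm17708. H3K79Hcy was within 1 kb of the start in 2 of 48 members (4.17%, 1.15 to 14.0%), beside 0.880% of all genes, downstream in Efna1 and upstream in Sema6a. Within 5 kb it was still 2 of 48, beside 2.44% of all genes, a share inside the same interval. For starts inside an H3K79Hcy peak, a count of 0 of 48 allows a share of up to 7.41% by the Wilson interval. It does not set the members apart from all genes, at 0.416%.

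The member starts were rich in CG dinucleotides whether or not H3K4me3 was called there. The median was 22 in the 8 windows with H3K4me3 within 1 kb and 17 in the 40 others, beside 20 and 9 for all genes. Epha8, with 54 in its window, and Plxnc1, with 52, had their nearest H3K4me3 peak 186 and 550 kb away.

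Inside the gene bodies, H3K79Hcy and KHcy peaks were mostly intronic and about as rich in G and C as the gene around them. Of the 14 H3K79Hcy peaks 13 overlapped no exon, with a median of 37.9% G and C bases (33.0 to 55.0%), beside 41.3% for the 3056 peaks of that list in all protein-coding bodies. Of the 14, 6 were richer than their whole gene body, and the median difference was -0.11 percentage points. The 8 KHcy peaks had 39.6% beside 41.9%, with the peaks at the starts of Efnb3 and Ephb4 at 64.7 and 59.5%. The 41 H3K4me3 peaks had 49.0% beside 46.6%, with 55.8% in the 13 centred within 5 kb of the start and 47.1% in the 28 farther in. At most 4.87% of the 31-base words of any H3K79Hcy or KHcy peak in a member body recurred elsewhere in the genome.

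**Figure D4:**
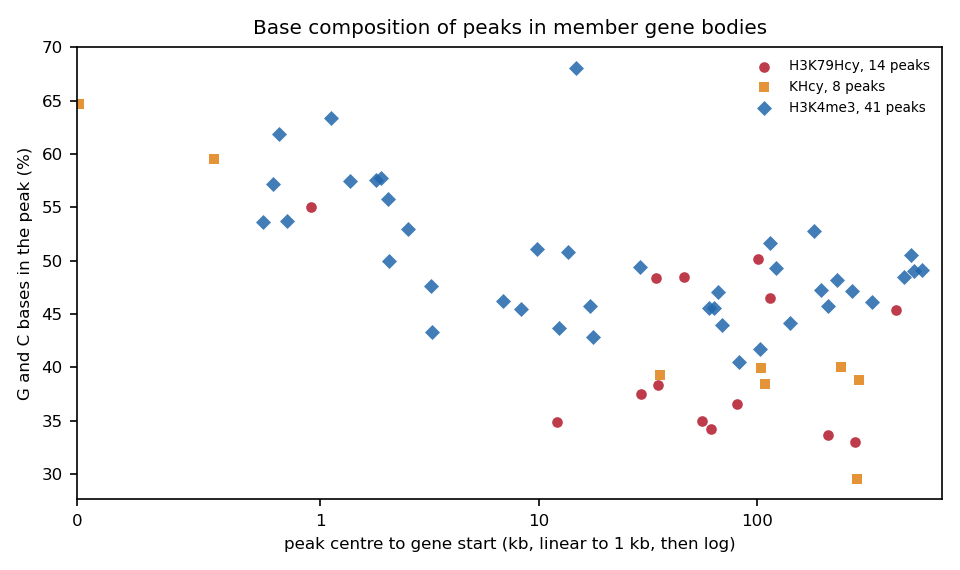
Share of G and C bases in each peak in a member body against the distance of its centre from the gene start (kb, linear up to 1 kb and logarithmic beyond). Peaks of every list centred within 1 kb of the start lay above 50%, and most H3K79Hcy and KHcy peaks farther in lay below 41%.

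Reads and folds of the member peaks were set beside those of all gene bodies. H3K79Hcy peaks held 15 to 36 reads with a median fold of 2.51 (1.88 to 4.71), beside 2.67 for that list in all bodies, and 2 of 14, in Epha5 and Slit2, passed the stricter score (14.3%, beside 30.2%). For KHcy 2 of 8 passed it, both in Ntng1 (25.0%, beside 41.2%), and for H3K4me3 21 of 41 (51.2%, beside 59.4%). The median folds of these 2 lists were 2.23 and 2.61, beside 2.24 and 2.59 in all bodies.

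Homocysteinylation peaks of the 2 antibodies did not meet in any member. Of the 14 H3K79Hcy peaks, 0 overlapped a KHcy peak by 1 bp or more (up to 21.5% by the Wilson interval), beside 428 of 3056 (14.0%) in all protein-coding bodies. With H3K4me3, 1 of 14 overlapped, in Efna1 (7.14%, 1.27 to 31.5%), beside 12.6%. Of the 8 KHcy peaks, 2 overlapped H3K4me3, in Efnb3 and Ephb4 (25.0%, 7.15 to 59.1%), beside 14.4%. No place in a member had peaks of all 3 lists.

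Genes that work with the members were counted in the same way. Of 23 further members of the same families, 2 had H3K79Hcy, 2 KHcy and 5 H3K4me3 in the body, beside 1.62, 1.92 and 4.93 expected from their length. Of 43 other guidance receptors and downstream signalling genes, 10 had H3K79Hcy, 13 KHcy and 23 H3K4me3, beside 8.79, 9.26 and 13.4. Those 43 had 24 H3K79Hcy and 28 KHcy peaks in 6.45 Mb, 3.72 and 4.34 per Mb, while the members had 1.27 and 0.726 per Mb. H3K4me3 peaks were likewise fewer per Mb in the members, 3.72 against 8.37. These densities take no account of the 5 Mb stretches. Against their stretches, the 43 genes had ratios of 1.16 (0.741 to 1.72) for H3K79Hcy, 1.22 (0.809 to 1.76) for KHcy and 1.05 (0.789 to 1.37) for H3K4me3. The members had 0.460, 0.321 and 0.860. Chl1, an adhesion molecule that acts with neuropilin-1, had 6 H3K79Hcy, 6 KHcy and 1 H3K4me3 peaks. Neo1, a netrin receptor related to Dcc, had 2, 3 and 1. Both were picked after their values had been seen.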

How the data were processed

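ChIP-seq peak lists of NE4C cells were used, 1 library for each antibody. Per the submitters' processing notes the authors used MACS 1.4.2 and mm9. The methods give Bowtie 2, MACS and filtering through input, while a figure legend names SICER. For each peak the authors deposited the position, the length, the count of reads, which is not normalized, and a score. The columns where a control would stand hold no values.

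For peaks of 1 window of 200 bp the score was −ln of a Poisson term with 1 background rate for the whole library, which was solved from 27, 8 and 14 such peaks for H3K79Hcy, KHcy and H3K4me3. Fold was reads over this background, in place of the fold enrichment and false discovery rate that had been planned. Positions are in mm9, counted from 1, with NCBIM37 as genome and GENCODE M1 as annotation. Of the gene symbols on the lists, Draxin and Sox1 were not analysed here.

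Expected members were summed from the shares of protein-coding genes of similar length (shorter over longer at least 0.8), and expected peaks from the peaks per Mb of its fixed bins of 5 Mb. Shares have 95% Wilson intervals and counts exact Poisson intervals. The Poisson intervals treat peaks as independent and the expected counts as exact. Without replicates no p-value was computed. A sequence or repeat measure was computed from the genome, and 31-base words were counted over the genome and both strands.

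The members, the other gene lists and the tests were chosen with earlier results of these data known. Positions were given for the 3 members with the most peaks in each list, members with the start in an H3K4me3 peak, the member peak of largest fold in each list and members over 100 kb without a peak. The positions of Efnb3, Dcc and Sema6a and the start sequence of Efnb3 are not reported here. The alternatives were a stricter score, centres in the gene, merging within 3000 bp, lists of 7300 peaks, flanks of 5 and 50 kb, other length ranges, other stretches, overlap of 50% or within 1000 bp, and other definitions of the start. The counting functions were tested on simulated data. The tools were Python 3.11.15, numpy 2.4.6, pandas 2.3.3, scipy 1.17.1, numba 0.67.0 and matplotlib 3.10.9.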

Additional observations from a re-analysis of the deposited data

How the results depend on the processing

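Of 83 alternative values, 65 stayed within the set margin of the value reported and 18 moved. With the stricter score, 2 members had H3K79Hcy in the body, 1 had KHcy and 9 had H3K4me3, with 2, 2 and 21 peaks, and with 10 kb the members were 2, 1 and 11. The ratio to genes of similar length then fell to 0.420 for H3K79Hcy and 0.157 for KHcy, the ratio to the 5 Mb stretches for H3K79Hcy was 0.181, and the overlap of H3K79Hcy with H3K4me3 was 0%, since few peaks were left. With lists of 7300 peaks, 9 members had H3K4me3, with 14 peaks. For the start, 2 members had an H3K79Hcy peak within 1000 bp, and H3K4me3 was at the start of 8 members when the start of any transcript counted and of 8 when a peak within 1000 bp did. Alternatives added after the data had been seen were the other genes of the stretch, peak centres for the stretch ratio and the sparse tiles. From the other genes of the stretch the ratios were 0.521 (0.285 to 0.875), 0.289 (0.125 to 0.569) and 0.842 (0.604 to 1.14).

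Precision was limited by 1 library per antibody, by counts of 14 and 8 homocysteinylation peaks, and by 15 to 60 reads in each. The lists hold no control reads, so the local background of the chromatin was not tested. No leave-one-out or paired analysis was possible because each antibody had a single library.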
